A study of Mus musculus with 77 samples.

Results

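The comparison described here is that of whole lung from Trem2 knockout mice (KO) with whole lung from C57BL/6J mice (B6), both raised in room air to 14 days of age. It compares 8 of the 77 samples of the series, 4 libraries of each genotype, and all genes of the expression table entered it. The fit that tested it held all 15 libraries of the table, so the spread between hyperoxia libraries also entered the error. Of 24940 transcripts, 1 per gene symbol, 15614 reached 1 TPM (transcript level as a read count scaled for transcript length and library total) in at least 3 of the 15 libraries of the table and were tested. The series asks how TREM2 and p53 take part in oxygen injury of the newborn lung. Room air is the unexposed state of the 2 genotypes.

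The KO animals are the Jackson Laboratory Trem2 strain, labelled Trem2 knock out, and the B6 animals are labelled C57BL/6J. No transgene, Cre driver or treatment is named for either group, and the labels do not give which stretch of Trem2 is missing. The lungs were perfused and poly(A) RNA was sequenced. Libraries of the same genotypes kept in 75% oxygen (hyperoxia) to the same age, 4 of KO and 3 of B6, are used beside the room-air values because none of them entered the room-air difference. Whether each library came from its own animal is not stated, and the spread that the p-values rest on may therefore be partly technical.

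Sex and a date code, both taken from the column names, differ between the groups. The room-air libraries carry 3 date codes, named here by their order. B6 libraries 1 and 2 are male with the earliest code, and libraries 3 and 4 are female with the middle code. KO libraries 1 and 2 are male with the middle code, and libraries 3 and 4 are male with the latest code. What the date code marks is not stated. The middle code, the only one that both genotypes share, sets 2 KO males against 2 B6 females, so there sex and genotype cannot be told apart. In hyperoxia all B6 libraries carry the earliest code and all KO libraries the latest, so there genotype and date code cannot be told apart. The same holds among the room-air males, whose genotypes share no date code. In hyperoxia sex differs as well, as B6 library 1 is female and B6 libraries 2 and 3 and all KO libraries are male. The depth of the 8 libraries, recovered from TPM and transcript length, was an estimated 18.5 to 41.1 M reads. Sftpb, the surfactant gene that marks lung epithelium, read 1563 TPM or more in all 8.

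TREM2 is a lipid-binding receptor of macrophages and microglia. It has no signalling tail of its own and works through the adaptor TYROBP and the kinase SYK, and it is known for its part in lipid handling and survival of macrophages. In the lung it is found on alveolar and interstitial macrophages, a small share of the cells of the whole organ. In bulk tissue, fewer cells of a type and less RNA per cell cannot be told apart.

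In room air 12 genes passed the test (limma on log2(TPM + 1), Benjamini-Hochberg adjusted p below 0.05), which is 0.0769% of those tested. Of these, 8 rose in KO, 0.0512% of genes tested: Nr4a3, Hif3a, Fkbp5, Mir8114, Slc22a3, Mbd1, Foxo3 and Fli1. The 4 that fell, 0.0256%, were A730035I17Rik, Hlx, Prr5l and Ndn. All 12 had KO values that did not overlap with those of B6, as did 5.06% of all genes tested (1.78% higher and 3.28% lower in KO). At an unadjusted p below 0.05, 446 genes were higher in KO (2.86%) and 874 lower (5.6%). Differences below are KO minus B6 on the log2(TPM + 1) scale with the standard error of the fit, which understates the change of low genes, and folds are ratios of mean TPM. A rise or fall is that of KO against B6 at the same oxygen level.

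**Figure D1:**
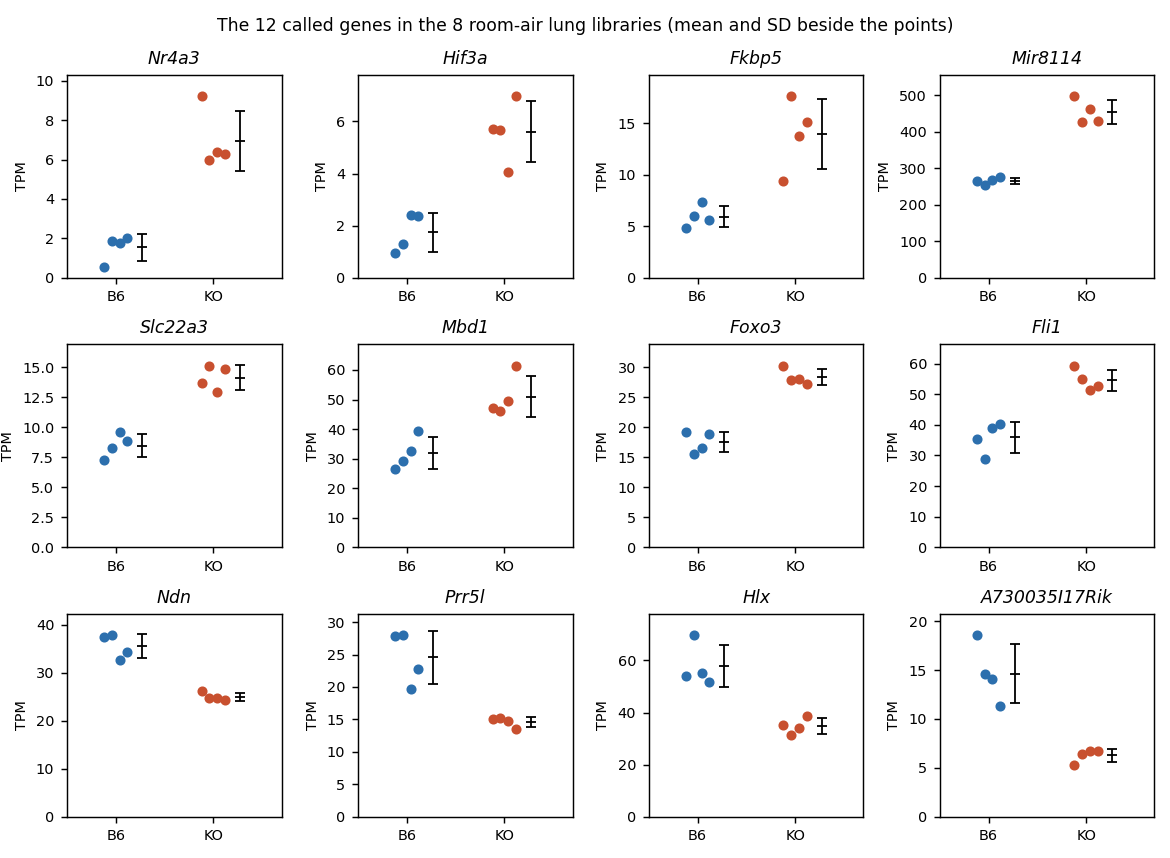
TPM of each of the 12 called genes in the 4 B6 and 4 KO room-air lung libraries (points, linear axis from 0), with the group mean and SD beside them. In every panel the KO points lie entirely above or entirely below the B6 points, with Nr4a3 the widest relative gap at 1.55 against 6.95 TPM on average.

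The call depended on the libraries in it. With males alone, 2 B6 against 4 KO libraries, 114 genes passed (44 higher, 70 lower) and 11 of the 12 were among them, Foxo3 excepted. Males of the 2 genotypes share no date code, so this fit cannot separate genotype from date code. With the date code as a term none passed in limma (1220 genes at an unadjusted p below 0.05). That fit takes its genotype difference from the middle code, 2 KO males against 2 B6 females, so it cannot separate genotype from sex. Voom on the estimated reads, an alternative chosen after seeing the data and fitted without a date code term, called 30 genes, all 12 among them. With only the room-air libraries in the fit 1 gene, Mir8114, was called (1276 at an unadjusted p below 0.05). Single libraries moved the count: without B6 library 1, 2, 3 or 4 it was 2, 1, 11 or 19 genes, without KO library 1 it was 23, and without KO library 2, 3 or 4 it was 1. Mir8114 was the only one of the 12 called in all 8 of these fits. In 22 of 22 alternative fits all 12 kept their direction. Their groups did not overlap, so a fit on fewer of these libraries could not reverse it.

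The targeted gene was low in both genotypes. Trem2 (chr17:48346401-48352276, mm10, plus strand) measured 3.36, 3.45, 3.73 and 2.14 TPM in the 4 B6 libraries and 1.13, 1.05, 2.75 and 1.45 TPM in the 4 KO libraries, on 39 to 102 and 15 to 61 estimated reads. KO library 3 lay above B6 library 4, so the groups overlapped. The mean was 3.17 ± 0.703 TPM in B6 and 1.59 ± 0.791 TPM in KO (SD, n = 4 each), a difference of -0.71 ± 0.20 that did not pass in limma (adjusted p = 0.262; unadjusted p = 0.00252). In hyperoxia the same transcript read 8.47, 5.97 and 9.85 TPM in B6 against 1.97, 2.67, 1.96 and 2.23 TPM in KO, a fall that passed (difference -1.49, limma adjusted p = 8.43e-05). In bone marrow-derived macrophages (BMDM) in room air the 2 B6 libraries had 948 and 962 TPM and the 2 KO libraries 236 and 239 TPM. Reads outside the missing stretch would still be counted, and which stretch that is was not known, so a nonzero KO level checks the label only in part.

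Neighbours of Trem2 on chromosome 17 did not pass. Of 93 genes tested within 5 Mb of its start, 0 were called in limma and 6 had an unadjusted p below 0.05 (6.45%, against 8.45% of all genes), and their median difference was -0.02. Treml1, the receptor gene next to Trem2 that is known from platelets, measured 0.423, 0.516, 1.00 and 1.16 TPM in B6 and 0.238, 0.256, 0.703 and 0 TPM in KO, with overlapping groups (adjusted p = 0.586, limma). Tyrobp, the adaptor that TREM2 signals through, stood at 58.1 ± 9.57 TPM in B6 and 60.3 ± 12.5 TPM in KO (SD, n = 4 each), with a 95% interval of the difference of -0.28 to 0.38. Inpp5d, the phosphatase SHIP1 that opposes signalling through such receptors, measured 16.5, 17.1, 15.5 and 15.1 TPM in B6 and 17.6, 19.9, 18.4 and 21.4 TPM in KO. All 4 KO values lay above B6, and the difference of 0.25 did not pass (adjusted p = 0.471, limma). Of the 15 tested members of the list of Trem receptors and their partners none was called in limma. On the higher side 1 had an unadjusted p below 0.05 and on the lower 2, against 2.86% and 5.6% of all genes. The list's median was -0.06, against -0.04 over all genes tested.

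The gene with the smallest adjusted p was a microRNA locus that overlaps a metabolic gene. Mir8114 measured 265, 254, 268 and 275 TPM in B6 and 497, 427, 461 and 429 TPM in KO, so the lowest KO library stood far above the highest B6 library. The rise was 0.77 ± 0.09 (limma adjusted p = 0.00367), 1.71-fold in mean TPM, on 483 to 776 estimated reads in B6 and 591 to 1108 in KO. Its hairpin (chr1:153899926-153900036, mm10, plus strand) lies at the start of Glul (chr1:153899929-153909723, same strand), the gene of glutamine synthetase, and begins 3 bases before it. The 2 transcripts share 108 bases, so reads of the hairpin cannot be told apart from those of the first part of Glul. Mature microRNAs carry no poly(A) tail and poly(A) RNA was sequenced, so the level of the mature microRNA was not measured. Glul itself read 169, 154, 154 and 167 TPM in B6 and 198, 210.0, 252 and 274 TPM in KO. Its groups did not overlap either, but the difference of 0.52 ± 0.11 did not pass (adjusted p = 0.0793, limma). The mature sequence is printed only to identify the symbol and not as the RNA that was counted. Its seed, bases 2 to 8, is in capitals (RefSeq, GRCm38.p6, chr1:153899989-153900009, plus strand).
mmu-miR-8114: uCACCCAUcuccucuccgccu

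Nr4a3 and Nr4a1, a pair of orphan nuclear receptors that many stimuli are known to induce quickly, lay on opposite sides. Nr4a3 read 0.533, 1.87, 1.78 and 2.00 TPM in B6 and 9.21, 5.97, 6.36 and 6.29 TPM in KO, a 4.50-fold rise in mean TPM (difference 1.67 ± 0.23, limma adjusted p = 0.0211). B6 library 1 lay below the other 3 and KO library 1 above the other 3, and no values of the groups met. Nr4a1 read 45.7, 51.9, 38.1 and 29.6 TPM in B6 and 12.6, 11.99, 19.6 and 22.4 TPM in KO, all 4 KO values below B6, with a difference of -1.28 ± 0.29 that did not pass (adjusted p = 0.115, limma). Within males Nr4a3 differed by 1.91 (adjusted p = 0.0135, limma) and Nr4a1 by -1.54, and within the shared date code by 1.54 and -1.38. Of the 24 immediate early genes tested Nr4a3 was the only one called, and the list's median was -0.11. On the lower side 2 had an unadjusted p below 0.05, Nr4a1 and Ier3, against 5.6% of all genes tested. Ier3, an early-response survival gene, measured 45.7, 47.9, 30.95 and 25.3 TPM in B6 and 24.3, 22.04, 28.3 and 21.97 TPM in KO, where KO library 3 lies above B6 library 4.

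The promoters of both receptors hold several copies of the core of the cAMP response element, TGACG or CGTCA on the other strand, at which CREB is known to bind. The 250 bases before each start site are shown because the pair shares this feature while its levels lay on opposite sides, with the motif in capitals (RefSeq, GRCm38.p6, both on the plus strand). For Nr4a3 the window is chr4:48045055-48045304 and for Nr4a1 chr15:101266596-101266845.
Nr4a3: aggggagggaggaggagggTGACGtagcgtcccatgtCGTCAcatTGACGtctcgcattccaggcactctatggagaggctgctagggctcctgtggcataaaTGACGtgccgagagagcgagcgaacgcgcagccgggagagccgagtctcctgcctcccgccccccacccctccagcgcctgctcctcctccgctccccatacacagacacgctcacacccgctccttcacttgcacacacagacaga
Nr4a1: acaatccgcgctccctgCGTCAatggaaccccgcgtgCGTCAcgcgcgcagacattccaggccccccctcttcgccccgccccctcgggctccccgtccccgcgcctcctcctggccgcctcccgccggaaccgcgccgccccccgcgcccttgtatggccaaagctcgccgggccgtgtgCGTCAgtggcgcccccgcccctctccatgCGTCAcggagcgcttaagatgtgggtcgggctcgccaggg
In these windows the motif begins 231, 213, 205 and 147 bases before the start site of Nr4a3 and 233, 213, 69 and 40 bases before that of Nr4a1. Among 32851 such windows 17.8% hold at least 1 copy and 0.137%, 45 windows, hold 4 or more. The full palindrome TGACGTCA is in neither, and 1.55% of windows hold it. Of the 12 called genes 9 have a window in this table, and 3 of those 9 hold the core motif. A match describes letters and is not a measured site.

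Genes known to be induced by glucocorticoids were the list with the most members at an unadjusted p below 0.05. Fkbp5, a co-chaperone that restrains the glucocorticoid receptor and is one of its best known targets, read 4.83, 5.94, 7.32 and 5.58 TPM in B6 and 9.41, 17.6, 13.7 and 15.1 TPM in KO. It rose 2.36-fold in mean TPM (difference 1.09 ± 0.17, limma adjusted p = 0.0285), with KO library 1 closest to the B6 values. Hif3a, a member of the hypoxia-inducible factor family that lacks much of the activating function of the others, read 0.942, 1.29, 2.39 and 2.38 TPM in B6 and 5.73, 5.68, 4.08 and 6.97 TPM in KO. It rose 3.20-fold (difference 1.29 ± 0.20, limma adjusted p = 0.0376), and the 2 male B6 libraries lay below the 2 female ones. Of the 23 list members tested these 2 were called, 16 had an unadjusted p below 0.05 on the higher side and 0 on the lower, and 20 had a positive difference. Over all genes 2.86% had such a p on the higher side and 5.6% on the lower, and 39.3% had a positive difference. This list, like the others, was written with earlier results of these data known, so its shares and those of all genes are not a like comparison. The median of the list was 0.58, against -0.04 over all genes tested. The summed level of the 23 genes was 821 to 1203 TPM in B6 and 1231 to 1641 TPM in KO.

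Below the threshold the same list held further genes whose groups did not overlap. Klf9, a transcription factor gene with glucocorticoid and clock input, measured 49.2, 77.7, 81.6 and 93.5 TPM in B6 and 112, 127, 118 and 136 TPM in KO (difference 0.73, adjusted p = 0.0718, limma). Pdk4, which restrains entry of pyruvate into the citric acid cycle, measured 3.04, 4.12, 4.16 and 6.88 TPM in B6 and 8.80, 9.16, 17.2 and 17.9 TPM in KO (difference 1.34, adjusted p = 0.0718, limma). KO libraries 3 and 4, which share a date code, were the highest of the 8 for Pdk4. Zbtb16, a transcriptional repressor known from glucocorticoid-treated cells, read 4.14, 3.41, 13.6 and 6.81 TPM in B6 and 9.81, 28.3, 24.6 and 46.9 TPM in KO, with B6 library 3 above KO library 1 (difference 1.81, adjusted p = 0.0866, limma). Tsc22d3, which encodes the glucocorticoid-induced leucine zipper, measured 92.5, 137, 171 and 201 TPM in B6 and 196, 208, 299 and 328 TPM in KO, and KO library 1 fell inside the B6 range. Cdkn1c, the cell cycle inhibitor p57, measured 52.1, 54.1, 62.3 and 58.1 TPM in B6 and 77.4, 69.3, 72.4 and 72.8 TPM in KO and did not pass (adjusted p = 0.138, limma).

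The values of this list differed between fits that treat sex and date code in other ways. Among males alone, where the genotypes share no date code, 7 of the 23 genes were called in limma (Fkbp5, Zbtb16, Tsc22d3, Klf9, Hif3a, Pdk4 and Cdkn1c) and the list's median was 0.75. Within the shared date code, 2 KO males against 2 B6 females, none was called in limma, 8 had an unadjusted p below 0.05 on the higher side, 0 on the lower, and the median was 0.20. There Fkbp5 differed by 0.91, Hif3a by 0.98, Pdk4 by 0.65 and Tsc22d3 by 0.12. With sex as a term the list's median was 0.59 and 4 genes were called in limma (Fkbp5, Klf9, Hif3a and Cdkn1c). With the date code as a term the genotype difference comes from the shared date code too, so it is the same estimate. The median was again 0.20, and none was called in limma. In that fit 7 had an unadjusted p below 0.05 on the higher side and 0 on the lower. Any further contribution of sex and date code to the list's values was not tested.

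**Figure D2:**
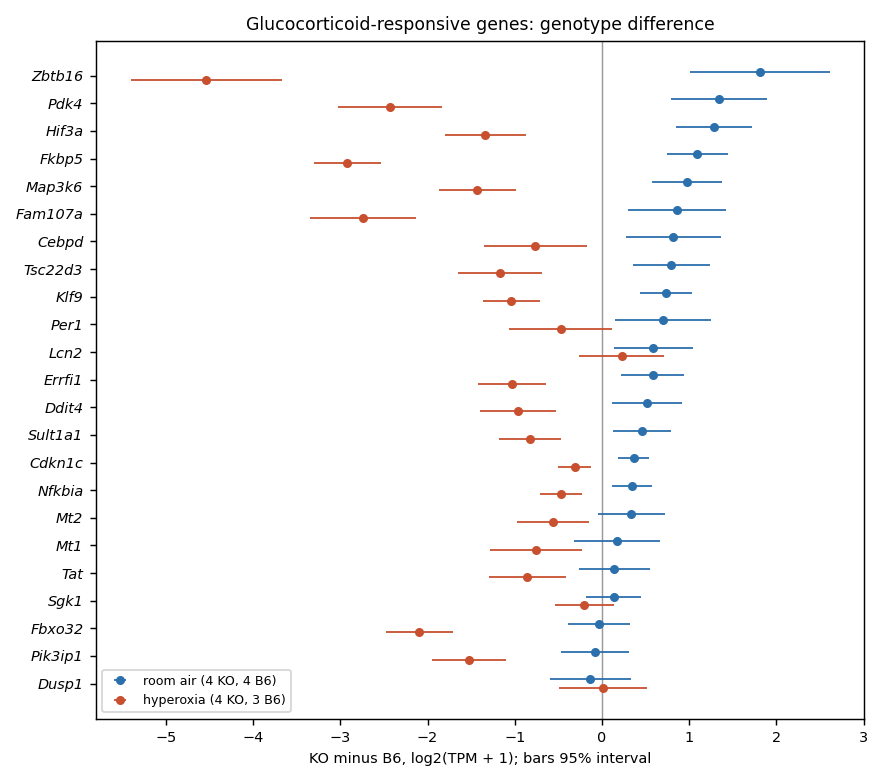
Difference between KO and B6 on the log2(TPM + 1) scale for the 23 tested glucocorticoid-responsive genes, in room air (blue) and in 75% oxygen (red), with 95% intervals of the fit. In room air 20 of 23 points lie right of 0, and in hyperoxia 21 of 23 lie left of it.

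The receptor binds an inverted repeat, searched here as GNACA and TGTNC with 3 bases between them, on both strands of the 250 bases before the start site. Of the 23 genes 19 have a window in the RefSeq table, and 4 of the 19 hold the motif: Map3k6, Fam107a, Mt1 and Sgk1. Of all symbols listed there, 0.44% hold it. Their windows are shown because the 4 genes share the motif and differ in how far apart the genotypes were (GRCm38.p6, motif in capitals). Those of Map3k6 (chr4:133240568-133240817), Mt1 (chr8:94178839-94179088) and Sgk1 (chr10:21993640-21993889) are on the plus strand and that of Fam107a (chr14:8309780-8310029) on the minus strand. The Sgk1 window belongs to another start site than the transcript in the expression table, 1 of 6 listed for that gene.
Map3k6: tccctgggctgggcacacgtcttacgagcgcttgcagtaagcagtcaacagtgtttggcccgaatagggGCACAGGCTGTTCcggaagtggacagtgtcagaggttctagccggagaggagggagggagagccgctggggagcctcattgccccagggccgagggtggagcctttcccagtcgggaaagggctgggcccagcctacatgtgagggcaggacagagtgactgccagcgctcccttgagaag
Fam107a: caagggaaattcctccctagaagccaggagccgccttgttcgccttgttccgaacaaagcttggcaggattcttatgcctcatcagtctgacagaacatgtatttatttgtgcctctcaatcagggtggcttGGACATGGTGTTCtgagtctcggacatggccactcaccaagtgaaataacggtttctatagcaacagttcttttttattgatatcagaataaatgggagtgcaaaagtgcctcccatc
Mt1: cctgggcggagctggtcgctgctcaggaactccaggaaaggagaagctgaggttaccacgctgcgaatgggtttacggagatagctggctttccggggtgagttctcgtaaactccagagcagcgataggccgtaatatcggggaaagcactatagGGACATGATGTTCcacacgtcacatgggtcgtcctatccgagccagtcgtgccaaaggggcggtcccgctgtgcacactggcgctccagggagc
Sgk1: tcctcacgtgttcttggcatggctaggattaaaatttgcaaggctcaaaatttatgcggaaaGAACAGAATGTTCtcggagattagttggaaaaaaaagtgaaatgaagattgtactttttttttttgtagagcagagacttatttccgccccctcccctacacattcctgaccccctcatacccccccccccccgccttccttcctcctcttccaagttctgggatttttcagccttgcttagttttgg
Map3k6, a stress kinase gene, measured 4.07, 4.93, 5.17 and 5.24 TPM in B6 and 9.04, 8.95, 10.4 and 14.2 TPM in KO, with groups apart (difference 0.97, adjusted p = 0.0718, limma). Fam107a, a small actin-associated protein gene, measured 1.23, 1.73, 1.91 and 2.54 TPM in B6 and 3.37, 4.54, 3.42 and 5.36 TPM in KO, also apart (difference 0.86, adjusted p = 0.325, limma). Mt1, a metal-binding metallothionein, measured 28.4, 24.9, 22.95 and 17.02 TPM in B6 and 41.9, 18.2, 30.7 and 19.3 TPM in KO, with a 95% interval of the difference of -0.32 to 0.66. Sgk1, a kinase of ion transport and survival, measured 112, 109.8, 123 and 181 TPM in B6 and 115, 138, 151 and 166 TPM in KO, with an interval of -0.18 to 0.45. So 2 of the 4 genes with the motif had separate groups, as did 8 of the 23 genes of the list and 5.06% of all genes tested. None of the 4 was called in limma at an adjusted p below 0.05, 2 of them had an unadjusted p below 0.05, and Fkbp5 and Hif3a, which were called, have no such match in their windows.

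The other genes that rose encode regulators and a transporter. Foxo3, a forkhead transcription factor active when insulin and growth factor signalling is low, read 19.2, 15.6, 16.6 and 18.8 TPM in B6 and 30.3, 27.9, 28.1 and 27.2 TPM in KO (difference 0.67 ± 0.11, limma adjusted p = 0.042). The 4 KO values lay close together. Fli1, an ETS factor of endothelial and blood cells, read 35.4, 28.8, 38.98 and 40.4 TPM in B6 and 59.3, 54.9, 51.2 and 52.7 TPM in KO (difference 0.60 ± 0.10, limma adjusted p = 0.0453). Mbd1, a protein that binds methylated CpG sites, read 26.3, 29.3, 32.7 and 39.3 TPM in B6 and 47.1, 46.1, 49.4 and 61.4 TPM in KO, and the difference of 0.67 ± 0.11 passed (limma adjusted p = 0.042). Within the shared date code that of Mbd1 was 0.37, among males 0.84. Slc22a3, the organic cation transporter that takes up monoamines, read 7.24, 8.25, 9.57 and 8.85 TPM in B6 and 13.7, 15.1, 12.9 and 14.8 TPM in KO (difference 0.68 ± 0.12, limma adjusted p = 0.042). It overlaps C030013G03Rik on the other strand, and the strand setting of the count is not known.

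Among the genes that fell, Prr5l, whose product associates with the mTOR complex 2, read 27.8, 27.9, 19.7 and 22.7 TPM in B6 and 14.99, 15.2, 14.8 and 13.5 TPM in KO (difference -0.70 ± 0.10, limma adjusted p = 0.0257). KO libraries varied little, while the 2 male B6 libraries stood above the 2 female ones. Hlx, a homeobox factor of organ mesenchyme, read 54.2, 69.6, 55.3 and 51.8 TPM in B6 and 35.3, 31.2, 34.2 and 38.7 TPM in KO (difference -0.71 ± 0.11, limma adjusted p = 0.0409), with B6 library 2 the highest. Ndn, which encodes necdin and is expressed from the paternal allele, read 37.5, 37.7, 32.7 and 34.2 TPM in B6 and 26.2, 24.6, 24.7 and 24.3 TPM in KO (difference -0.49 ± 0.08, limma adjusted p = 0.042). It was the only one of 18 imprinted genes called, and the list's median was 0.03.

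A730035I17Rik, a noncoding RNA gene (chr5:98183118-98185984, mm10, minus strand), read 18.5, 14.6, 14.1 and 11.3 TPM in B6 and 5.34, 6.37, 6.71 and 6.76 TPM in KO. It fell by more than any other called gene (difference -1.09 ± 0.18, limma adjusted p = 0.042). Its whole span lies inside Prdm8 (chr5:98180869-98187448, plus strand), a gene of a histone methyltransferase family member, so without stranded counting reads of the pair cannot be told apart. Prdm8 read 22.1, 20.3, 18.7 and 15.2 TPM in B6 and 10.97, 9.89, 9.93 and 8.82 TPM in KO, with no overlap (difference -0.87 ± 0.17, adjusted p = 0.0718, limma). In B6 both transcripts were highest in library 1 and lowest in library 4, while in KO A730035I17Rik was lowest and Prdm8 highest in library 1.

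The hyperoxia libraries gave the genotype difference again in other samples. There 37.2% of genes were called (22% higher and 15.2% lower in KO), so a call is common. Of the 12 genes called in room air, 9 were called in hyperoxia: 1 in the same direction, Nr4a3, and 8 in the other. Nr4a3 read 0.271, 0.917 and 0.669 TPM in B6 and 2.76, 2.13, 3.83 and 1.66 TPM in KO in hyperoxia (difference 1.14, limma adjusted p = 0.00255). The difference between its 2 genotype effects was -0.54 (adjusted p = 0.272, limma), so it was not shown to differ between the oxygen levels. For the other 11 this difference of differences passed, as it did for 25.3% of all genes tested. It includes the room-air difference by which the 12 were chosen, so the 2 shares are not a like comparison.

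Fkbp5 shows the size of the turn. In hyperoxia it read 66.3, 90.9 and 64.7 TPM in B6 and 7.76, 8.19, 8.96 and 10.5 TPM in KO, a fall in KO (difference -2.92, limma adjusted p = 7.02e-08), against its rise in room air. In oxygen 3 of the 4 KO values lay below every KO value in air, and B6 in oxygen was far above both. Zbtb16 read 80.5, 95.4 and 79.4 TPM in B6 and 2.50, 2.95, 2.29 and 3.13 TPM in KO in hyperoxia, a fall in KO (difference -4.54, limma adjusted p = 1.88e-06). Mir8114 read 1043, 1267 and 907 TPM in B6 and 252, 262, 266 and 252 TPM in KO (difference -2.04, limma adjusted p = 4.98e-09), and Glul 621, 669 and 496 TPM and 139.8, 134, 146 and 156 TPM (difference -2.03, limma adjusted p = 3.80e-08). In hyperoxia 19 of the 23 glucocorticoid-responsive genes were called lower and 0 higher in KO than in B6, against 15.2% and 22% of all genes. For 19 the genotype difference differed from that in room air.

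**Figure D3:**
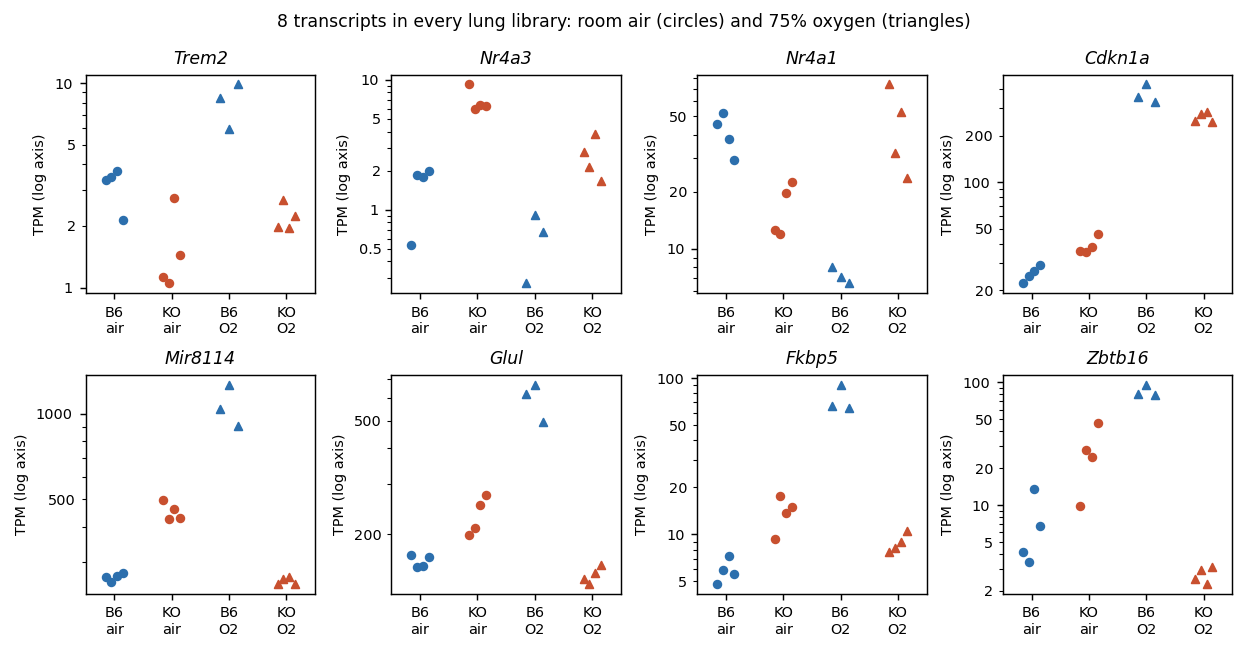
TPM (log axis) of 8 transcripts in every lung library of the table, B6 in blue and KO in red, room air as circles and 75% oxygen as triangles. For Fkbp5, Zbtb16, Mir8114 and Glul the KO points are higher than most B6 points in air and all lower in oxygen, while for Nr4a3 all KO points are higher at both.

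Nr4a1, Prr5l, Hlx and Ndn had lower values in KO than in B6 in room air and higher values in KO than in B6 in hyperoxia. Nr4a1 read 8.05, 7.10 and 6.57 TPM in B6 and 73.5, 32.1, 52.8 and 23.6 TPM in KO in hyperoxia, a rise of 2.37 (limma adjusted p = 3.70e-05). Prr5l read 9.17, 7.74 and 8.15 TPM in B6 and 16.6, 15.2, 14.5 and 14.7 TPM in KO there, a rise of 0.80 (limma adjusted p = 5.99e-05). Hlx rose by 0.63 and Ndn by 0.49 (limma adjusted p = 0.00105 and 0.000625). In KO the hyperoxia values of Prr5l (15.3 ± 0.924 TPM, SD, n = 4) lay close to the room-air values (14.6 ± 0.759 TPM, SD, n = 4), while the B6 means were 8.35 and 24.5 TPM. A730035I17Rik, Slc22a3 and Fli1 were not called in hyperoxia (differences -0.20, 0.12 and 0.05).

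**Figure D4:**
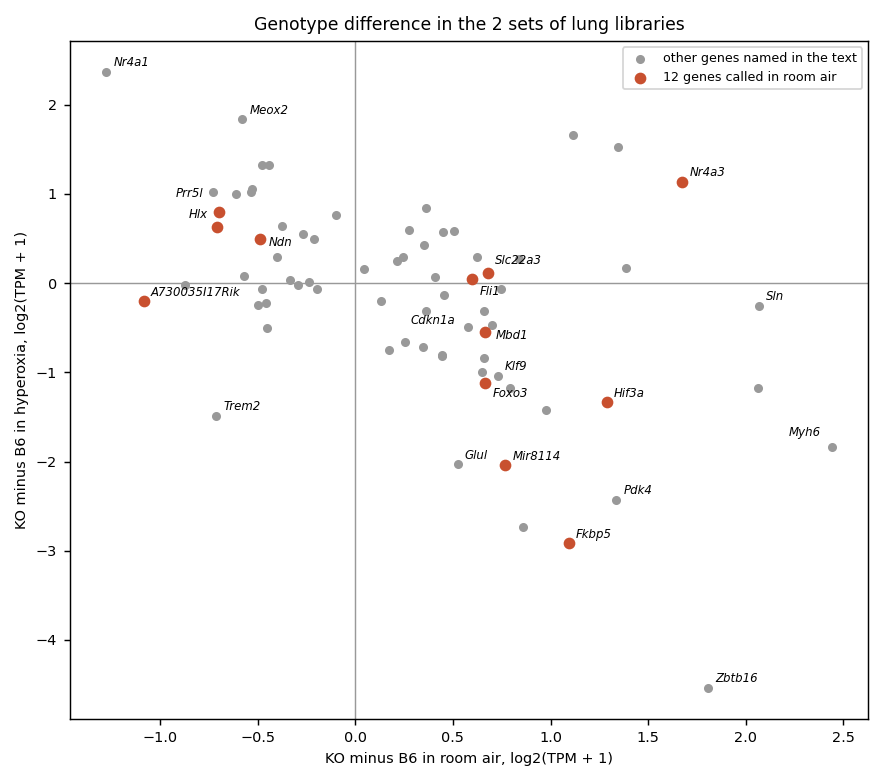
Genotype difference (KO minus B6, log2(TPM + 1)) in room air on the horizontal axis and in hyperoxia on the vertical axis, for the 12 called genes (red) and other genes named in the text (grey). Of the 12 red points 8 were called in the opposite direction in hyperoxia, and Nr4a3 is the red point at the upper right.

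In BMDM in room air, 2 libraries of each genotype with no date code shared between the genotypes, 49.1% of 12320 genes were called. Of the 12 lung genes 8 were tested there. Mir8114, Foxo3, Mbd1 and Fli1 rose also in KO BMDM (differences 0.81, 0.72, 0.61 and 0.65), Hlx and Ndn changed in the other direction (0.35 and 1.23), and Prr5l and Fkbp5 were not called (adjusted p = 0.825 and 0.105, limma). Glul rose there too, by 0.63 (limma adjusted p = 1.56e-05). With no shared date code, genotype and date code cannot be told apart in these cells. The sex label differs too: it is MF for B6 library 1 and F for B6 library 2, and MF for both KO libraries.

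The p53 axis showed no called gene in room air in the main fit. Trp53 itself measured 41.5, 39.9, 34.6 and 34.3 TPM in B6 and 34.3, 35.6, 33.4 and 36.1 TPM in KO, with a 95% interval of the difference of -0.32 to 0.12. Cdkn1a, the p21 inhibitor of the cell cycle and the best known p53 target, measured 22.1, 24.6, 26.8 and 29.3 TPM in B6 and 36.04, 35.1, 38.3 and 45.98 TPM in KO. The groups did not overlap, and the difference of 0.58 ± 0.11 just missed the threshold (adjusted p = 0.0626, limma). Among males alone, where the genotypes share no date code, it passed (0.70, limma adjusted p = 0.0331). It passed also with a filter at 5 TPM, library weights, quantile normalization, voom or without B6 library 4, and in no other alternative. In hyperoxia Cdkn1a stood lower in KO than in B6 (difference -0.49, limma adjusted p = 0.00318). The hyperoxia means were 262 TPM in KO and 372 TPM in B6, both above the room-air means of 38.9 and 25.7 TPM.

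The p53 targets Plk2 and Pidd1 lay on the lower side. Plk2, a polo-like kinase, measured 188, 199, 160.1 and 143 TPM in B6 and 114, 116, 122 and 119 TPM in KO (difference -0.54, adjusted p = 0.0743, limma). It passed with library weights, males alone, voom or without B6 library 4, and in no other alternative. Pidd1, which takes part in p53-linked cell death, measured 1.74, 1.60, 2.06 and 2.02 TPM in B6 and 0.716, 1.39, 1.20 and 0.937 TPM in KO (difference -0.48, adjusted p = 0.301, limma). For both, every KO value lay below B6. Of the 31 targets tested 0 were called in limma in the main fit. On the higher side 2 had an unadjusted p below 0.05 and on the lower 4, against 2.86% and 5.6% of all genes. As a list they did not lean: 12 differences were positive and 19 negative, while 39.3% of all genes had a positive one. The median was -0.03, against -0.04 over all genes tested. The p53 peak lists of room-air lung, called by the authors on pooled replicates, hold 147 peaks in B6 and 179 in KO, and such peaks lie within 10 kb of the start of 50 and 53 of the 15614 genes tested. None of the 12 called genes is among them, a count that so few peaks near genes make uninformative.

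Several genes just outside the threshold had groups that did not overlap. On the higher side were Jade2, a histone acetylation scaffold (9.77 ± 0.852 TPM in B6 and 15.97 ± 2.10 TPM in KO, SD, n = 4 each), and Spsb1, an adaptor of ubiquitin ligases (8.76 ± 0.656 and 14.6 ± 2.85 TPM). Usp2, a clock-controlled deubiquitinase, measured 2.28, 3.25, 2.77 and 3.13 TPM in B6 and 5.69, 5.85, 4.19 and 4.69 TPM in KO. Pex11a, which drives peroxisome division, measured 9.94, 9.98, 10.5 and 10.3 TPM in B6 and 12.7, 13.6, 14.8 and 15.9 TPM in KO. The limma adjusted p values of these genes were 0.0518, 0.0718, 0.0718 and 0.0718. On the lower side Rpa2, a subunit of the single-strand DNA binding complex of replication, measured 14.4, 12.5, 10.97 and 12.2 TPM in B6 and 7.47, 9.84, 8.99 and 8.01 TPM in KO. Ndnf, a secreted factor of stromal cells, measured 157, 152, 150.2 and 122 TPM in B6 and 113, 72.5, 86.7 and 79.9 TPM in KO, and Mecom, a zinc finger transcription factor, 28.1 ± 1.19 and 22.1 ± 1.94 TPM (SD, n = 4 each). Their limma adjusted p values were 0.0743, 0.0866 and 0.0871.

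Cell cycle genes leaned to the lower side as a group. None of the 22 tested was called in limma, 6 had an unadjusted p below 0.05 on the lower side and 0 on the higher, and all 22 differences were negative, while 39.3% of all genes had a positive one. The list's median was -0.25. Aurkb, a mitotic kinase, measured 7.71, 7.56, 6.52 and 8.13 TPM in B6 and 5.83, 4.56, 5.39 and 4.92 TPM in KO. Mcm6, part of the replicative helicase, measured 25.3, 25, 28.3 and 26.4 TPM in B6 and 22.3, 24.2, 17.7 and 16.7 TPM in KO, and Bub1, of the spindle checkpoint, 4.83 ± 0.714 and 3.73 ± 0.206 TPM (SD, n = 4 each). For these 3 genes the groups did not overlap, while for Ccna2, which encodes cyclin A2, KO library 3 (14.9, 14.9, 17.4 and 14.5 TPM in KO) reached into the B6 range (19.7, 16.4, 17.3 and 20.2 TPM). In the list 4 of 22 genes had groups apart, all lower in KO, against 3.28% of all genes tested. Within the shared date code 15 of the 22 differences were negative and the median was -0.07. In hyperoxia 9 of the 22 were called higher in KO than in B6 and 0 lower, against 22% and 15.2% of all genes.

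The clock genes were mixed. Of 18 tested 0 were called in limma, 5 had an unadjusted p below 0.05 on the higher side and 2 on the lower, and the median was 0.03. Over all genes tested 2.86% and 5.6% had such a p. Groups were apart for 2 of the 18, both higher in KO, against 1.78% of all genes. Per2, a repressor of the clock loop, measured 14.6, 15.3, 14.1 and 15.8 TPM in B6 and 19.2, 18.6, 20.8 and 25.5 TPM in KO, with groups apart (adjusted p = 0.196, limma). Bhlhe40, another repressor of that loop, measured 16.9, 15.9, 16.2 and 17.3 TPM in B6 and 20.1, 18.6, 22.8 and 19.7 TPM in KO, also apart (adjusted p = 0.419, limma). Per1, which also stands in the glucocorticoid list, measured 13.97, 35.6, 37.2 and 47.9 TPM in B6 and 49.7, 43.1, 54.4 and 57.1 TPM in KO, with B6 library 1 the lowest of all and B6 library 4 inside the KO range.

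Interferon-response genes leaned lower in KO, and sex or date code moved with them. Of 18 tested 0 were called in limma and 1 had an unadjusted p below 0.05, on the lower side, as did 5.6% of all genes. Of the 18 differences 16 were negative, while 39.3% of all genes had a positive one. The median was -0.22, against -0.04 over all genes tested. Groups were apart for 2 of the 18, both lower in KO, against 3.28% of all genes tested. Irf7, the transcription factor that amplifies interferon production, measured 7.21, 7.85, 15.6 and 10.2 TPM in B6 and 4.87, 6.33, 7.12 and 6.13 TPM in KO, with B6 library 3 the highest and no overlap (adjusted p = 0.372, limma). Ifit2, an interferon-induced RNA-binding protein gene, measured 20.04, 20.1, 19.1 and 20.1 TPM in B6 and 17.8, 17.3, 16.02 and 17.6 TPM in KO, also apart. Without B6 library 3 the list's median was -0.08. Among males alone the list's median was 0.03 with 8 of 18 negative, and within the shared date code it was -0.46 with 18 of 18 negative.

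Macrophage genes were not called in KO lung. Of 14 alveolar macrophage genes 4 had an unadjusted p below 0.05 on the higher side, as did 2.86% of all genes tested. None was called in limma, and the median was 0.28. Single libraries moved this: without KO library 3 the count was 1 and the median 0.07, and without B6 library 2 they were 6 and 0.43. Plet1, a surface protein of these cells, measured 13.6, 20.8, 20.97 and 18.7 TPM in B6 and 29.8, 24.7, 31.01 and 21.1 TPM in KO, and Ear1, an eosinophil-associated ribonuclease gene that they also express, 12.2, 25.7, 25.1 and 24.2 and 27.4, 29.6, 46.2 and 30.8 TPM. In both the lowest KO value lay just above the highest B6 value. They were the 2 of the 14 with groups apart, against 1.78% of all genes apart on the higher side. Pparg, the nuclear receptor that sets their identity, measured 3.23, 4.82, 4.06 and 4.08 TPM in B6 and 5.36, 4.09, 7.98 and 4.75 TPM in KO, with overlap. Of 17 lipid-associated macrophage genes, the set best known to need TREM2, 0 were called in limma and the median was 0.06. On the higher side 1 had an unadjusted p below 0.05 and on the lower 2, Trem2 among them, against 2.86% and 5.6% of all genes. Apoe, a lipid carrier and TREM2 ligand, measured 526 ± 64.97 TPM in B6 and 622 ± 72 TPM in KO (SD, n = 4 each; 95% interval of the difference -0.04 to 0.53).

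Of 18 interstitial macrophage and monocyte genes 0 were called in limma, and the median was -0.06. On the higher side 1 lay below an unadjusted p of 0.05 and on the lower 2, against 2.86% and 5.6% of all genes. Lyve1, known from perivascular macrophages and lymphatic vessels, measured 106, 154, 172 and 182 TPM in B6 and 223, 208, 175 and 217 TPM in KO. Cx3cr1, the fractalkine receptor, measured 11.6, 9.83, 11.3 and 9.50 TPM in B6 and 8.15, 9.59, 5.62 and 5.37 TPM in KO, and Plac8, a monocyte gene, 50.4 ± 7.04 and 35.9 ± 5.56 TPM (SD, n = 4 each). In all 3 the groups overlapped. Of 13 dendritic cell and MHC class II genes 2 had an unadjusted p below 0.05, both on the higher side, against 2.86% of all genes, and the median was 0.20. H2-Ab1, a class II chain, measured 120.2, 157, 190.4 and 129 TPM in B6 and 207, 135, 224 and 203 TPM in KO.

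Lymphocyte genes split. Of 12 tested 0 were called in limma, 2 had an unadjusted p below 0.05 on the higher side and 3 on the lower, against 2.86% and 5.6% of all genes. Cd3g, of the T cell receptor complex, measured 7.66, 8.93, 8.48 and 6.61 TPM in B6 and 6.82, 26.6, 14.5 and 17.8 TPM in KO, with KO library 2 the highest. The B cell genes Cd79b and Ms4a1 measured 32.3 ± 5.65 and 20.3 ± 6.46 TPM in B6 and 24.1 ± 3.62 and 14.2 ± 1.76 TPM in KO (SD, n = 4 each), with overlapping groups. Beside the T cell values, the thymus gene Dntt read 0.213, 0.022, 4.36 and 1.69 TPM in B6 and 2.52, 21.5, 0.34 and 6.91 TPM in KO, again highest in KO library 2, and its part in the result was not tested.

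The structural cells of the lung gave small differences. Of 11 alveolar type 2 genes none reached an unadjusted p below 0.05, which 8.45% of all genes did, and the median was 0.18. Sftpb, a surfactant protein gene, measured 1563, 1649.8, 1772 and 1627 TPM in B6 and 1912, 1904, 2080.4 and 1777 TPM in KO, with groups apart and an adjusted p of 0.713 in limma. Under quantile normalization its difference changed sign to -0.15. Sftpa1, another surfactant protein gene, measured 976 ± 253 TPM in B6 and 1273 ± 169.9 TPM in KO (SD, n = 4 each). Of 11 alveolar type 1 genes 9 differences were negative, while 39.3% of all genes had a positive one, and the median was -0.17. In this list 2 genes had an unadjusted p below 0.05, both on the lower side, against 5.6% of all genes. Of 17 endothelial genes 2 had an unadjusted p below 0.05, both on the lower side, against 5.6% of all genes, and the median was 0.00. Vegfa, the growth factor of capillaries, measured 419, 416, 375 and 380.1 TPM in B6 and 332, 365, 303 and 377 TPM in KO, with a slight overlap, and its receptor gene Kdr 152 ± 22.5 and 126 ± 15.2 TPM (SD, n = 4 each).

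Among alveolar fibroblast genes 0 of 14 were called in limma and the median was -0.03. Groups were apart for 2 of the 14 on the higher side and 1 on the lower, against 1.78% and 3.28% of all genes tested. These 3 are given because they were among the members with the smallest p. Fgf10, the growth factor through which mesenchyme acts on the alveolar epithelium, measured 13.6, 12.8, 15.5 and 16.4 TPM in B6 and 19.2, 19.2, 18.96 and 23.6 TPM in KO (difference 0.45, adjusted p = 0.138, limma). Pdgfra, the receptor that marks myofibroblast precursors, measured 77.8, 81.4, 89.6 and 101 TPM in B6 and 107, 104, 104 and 130.2 TPM in KO (difference 0.35, adjusted p = 0.538, limma). Meox2, a homeobox factor of mesenchyme, measured 66.3, 55.7, 43.6 and 43.97 TPM in B6 and 38.5, 34.99, 28.6 and 35.4 TPM in KO (difference -0.58, adjusted p = 0.212, limma). In hyperoxia Fgf10 was higher in KO than in B6 (0.57, limma adjusted p = 0.00113), on the same side as in air. There Meox2 was higher in KO (1.84, limma adjusted p = 1.88e-06) and Pdgfra lower (-0.72, limma adjusted p = 0.0023), both on the opposite side.

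Stress and housekeeping lists differed in how many genes fell below an unadjusted p of 0.05, which 8.45% of all genes tested did. None of the 21 NRF2 antioxidant genes reached it (median 0.03), nor any of 11 neutrophil genes (0.19), 16 ribosomal protein genes (-0.06) or 14 elastic fibre genes (-0.07). Of 15 genes of the integrated stress response 12 differences were negative and 2 reached it, both lower (median -0.15). Of 14 sterol and fatty acid synthesis genes 3 reached it, all lower, and of 14 inflammatory cytokine genes 1, also lower. Among 11 heat shock genes 1 reached it on each side. Of 17 hypoxia and glycolysis genes Hif3a was called, 4 reached it on the higher side and 1 on the lower, and the median was 0.04. In the airway lists none of 11 ciliated and 6 secretory cell genes reached it, and none of 9 smooth muscle genes did. Apart from Hif3a, no gene of these lists was called in limma.

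**Figure D5:**
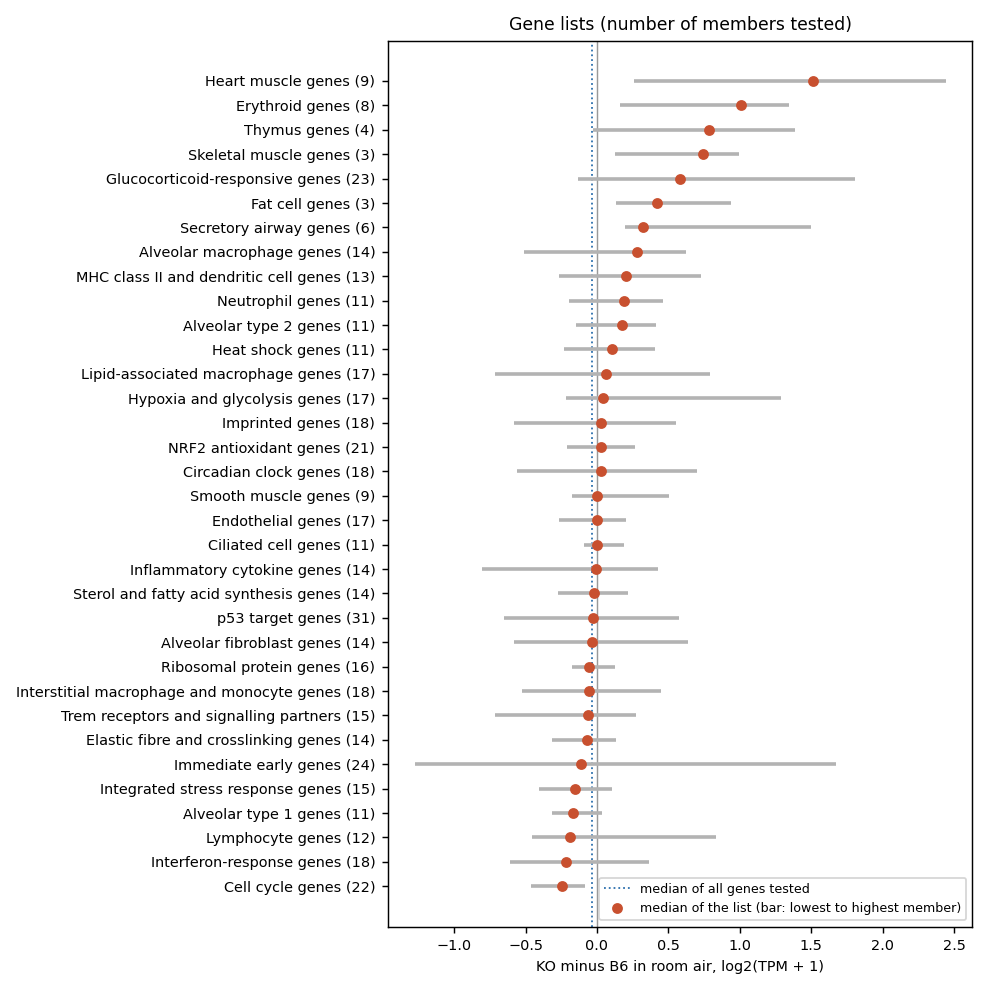
Median difference between KO and B6 in room air (red points, log2(TPM + 1)) for the gene lists other than the sex-linked one, with a bar from the lowest to the highest member and the number of members tested in brackets, and the median of all genes tested as a dotted line. Heart muscle and erythroid genes have the highest medians (1.51 and 1.01), glucocorticoid-responsive genes follow at 0.58 after the thymus and skeletal muscle lists, and cell cycle genes are lowest at -0.25.

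Markers of tissues other than lung varied widely between libraries. The 9 heart muscle genes summed to 48.4 to 83.5 TPM in B6 and to 51.0 to 367 TPM in KO, highest in KO library 2. None was called in limma, and 4 had an unadjusted p below 0.05, all higher, against 2.86% of all genes. Sln, the sarcolipin gene of the atria, was listed at 0 in B6 libraries 1, 2 and 4 and read 0.201 TPM in library 3, against 0.383, 5.86, 8.36 and 3.19 TPM in KO (adjusted p = 0.0749, limma). The heart muscle genes Myh6 and Myl7, of the myosin chains, read 0.859, 32.9, 22.5 and 11.98 TPM and 2.38, 84.2, 42.7 and 19.7 TPM in KO, with 0.727, 0.129, 1.11 and 4.34 TPM and 1.68, 1.97, 8.02 and 10.99 TPM in B6. The 8 erythroid genes summed to 382, 3199, 6857 and 6269 TPM in B6 and to 5756 to 6678 TPM in KO. Hba-a2, an alpha globin gene whose reads cannot be told apart with certainty from those of its near-identical copy Hba-a1, measured 78.9, 679, 1554 and 1470.5 TPM in B6, and Hbb-bs, of beta globin, 194, 1624, 3224 and 2862 TPM. In KO Hba-a2 measured 1512 ± 98.6 TPM and Hbb-bs 2844 ± 254 TPM (SD, n = 4 each). Tnnt3, of skeletal muscle, read 1.03 ± 0.446 TPM in B6 and 2.41 ± 0.832 TPM in KO (SD, n = 4 each).

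These levels moved in part with the groups: B6 library 1 had the lowest erythroid sum and KO libraries 2 and 3 the highest heart sums. Their part in the calls was not tested. Without B6 library 1, Mir8114 and Nr4a3 were called, the median of the erythroid list was 0.20 and that of the glucocorticoid list 0.40, with none of its genes called in limma and 15 at an unadjusted p below 0.05. Without KO library 2 Mir8114 alone was called and the median of the glucocorticoid list was 0.71. The Y-linked gene Ddx3y read 45.1, 39.5, 0.078 and 0.257 TPM in B6 and 37.1, 46.8, 44.7 and 44.5 TPM in KO, matching the sex in the column names, and with sex as a term 23 genes were called (15 higher, 8 lower), 8 of the 12 among them.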

How the data were processed

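RNA of whole lung was measured in 4 B6 and 4 KO room-air libraries. The authors deposited TPM per transcript in 1 table of 15 libraries. STAR, HOMER, Bowtie2 and mm10 are named without versions in the submitters' processing notes, while strand setting and annotation are not stated there. The p53 peak lists were called by HOMER on combined replicates, per the file headers, and their deposited signal (scaled tag numbers) was used only to locate peaks.

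Transcripts with at least 1 TPM in 3 libraries were tested on log2(TPM + 1) with limma 3.58.1 (R 4.3.3), fitting group means with a trended variance and Benjamini-Hochberg adjustment, called at 0.05. The fit was tested on simulated data. TPM times length gave whole reads for at least 99.9% of values (tolerance 0.15 reads), from which depth was estimated. Libraries of the DBA strain and a separately normalized set of B6 libraries were not used. Promoters and the microRNA are from RefSeq, GRCm38.p6.

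Named were Trem2, Trp53 and Cdkn1a, all called genes, up to 8 uncalled genes on each side with the smallest p and separate groups, and up to 4 members of each of 35 lists with the smallest p or a central role. Members and lists were chosen with earlier results of these data known. Alternatives were scaling, pseudocount, filter, covariates, single libraries and, added after seeing the data, voom.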

Additional observations from a re-analysis of the deposited data

Results flagged for a closer look

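For 46 of the 75 genes examined, the genotype difference in hyperoxia and that in room air were unequal (limma test of the difference of differences, Benjamini-Hochberg adjusted p below 0.05, which 25.3% of all genes tested reached). That test includes the room-air difference by which many of the 75 were chosen, so the 2 shares are not a like comparison. Values here are the KO minus B6 difference in hyperoxia minus that in room air on the log2(TPM + 1) scale, so a negative value means that KO stood lower against B6 in oxygen than in air. Among the genes called in room air these were Mir8114 (-2.81), Prr5l (1.50), Fkbp5 (-4.01), Hif3a (-2.62), Hlx (1.34), Foxo3 (-1.78), A730035I17Rik (0.88), Ndn (0.98), Slc22a3 (-0.56), Mbd1 (-1.21) and Fli1 (-0.55). Among the glucocorticoid-responsive, clock and p53 genes they were Trp53 (0.87), Cdkn1a (-1.07), Klf9 (-1.77), Pdk4 (-3.77), Zbtb16 (-6.34), Per1 (-1.18), Tsc22d3 (-1.97), Map3k6 (-2.40), Fam107a (-3.60), Per2 (-0.59) and Cdkn1c (-0.67). Among genes of immune, vascular, mesenchymal, muscle and dividing cells they were Inpp5d (-0.91), Plac8 (1.81), Lyve1 (-1.25), Cx3cr1 (1.58), Cd79b (0.69), Ms4a1 (1.77), Vegfa (0.71), Kdr (0.82), Meox2 (2.42), Pdgfra (-1.07), Mcm6 (1.02), Irf7 (1.61), Sln (-2.32) and Myh6 (-4.28). The others were Glul (-2.56), Jade2 (-1.65), Spsb1 (-1.50), Usp2 (-0.97), Pex11a (-1.26), Prdm8 (0.86), Plk2 (1.56), Ndnf (1.75), Mecom (0.37) and Nr4a1 (3.65). In hyperoxia the 2 genotypes share no date code, so genotype and date code cannot be told apart in any of these values.

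In 8 of 150 groups of 4 libraries, 1 library stood apart from the other 3 by Dixon's 95% limit, where chance flags about 1 in 20 groups. For Nr4a3 these were B6 library 1 at 0.533 TPM (others 1.78 to 2.00) and KO library 1 at 9.21 TPM (others 5.97 to 6.36), each on the far side from the other group. For Ear1 it was B6 library 1 at 12.2 TPM (others 24.2 to 25.7), for Ifit2 B6 library 3 at 19.1 TPM (others 20.0 to 20.1) and for Sln B6 library 3 at 0.201 TPM (others listed at 0). In KO it was library 4 for Fgf10 at 23.6 TPM (others 18.96 to 19.16) and for Pdgfra at 130.2 TPM (others 104 to 107), and library 3 for Ccna2 at 17.4 TPM (others 14.5 to 14.9).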

How the results depend on the processing

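Fewer genes than the 12 were called with the date code as a term (0 in limma, 1220 at an unadjusted p below 0.05), a minimum log2 change of 1 (4), no filter on low values (1), no variance trend (6, of which 5 among the 12) and only room-air libraries in the fit (1). Libraries of the shared date code alone gave 4 genes, all sex-linked and none of the 12. More were called with library weights (85), males alone (114), quantile normalization (19), sex as a term (23) and voom on estimated reads (30). Leaving out 1 library at a time gave 1 to 23. Median centring gave 16 genes, 13 higher and 3 lower, against 8 and 4. The cause of these changes was not tested. Trem2 was not called under any alternative (-0.61 to -1.03).

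Some small differences changed sign. The date code term and the shared date code alone give the same differences, both from KO males against B6 females. In both fits Trp53 became 0.021, Sgk1 -0.24, Tyrobp -0.17 and Hbb-bs -0.048. Tyrobp was -0.022 with library weights and ranged from -0.087 to 0.12 when 1 library was left out, negative without B6 library 1 and without KO library 3. Mt1 was -0.031 in males alone and ranged from -0.049, without KO library 1, to 0.34. Sftpb was -0.15 under quantile normalization, Ddx3y -0.15 with sex as a term, and Slc22a3 in hyperoxia -0.025 under quantile normalization. No paired analysis was possible because the column names do not carry the replicate numbers of the sample titles. At these depths Trem2 rested on 15 to 102 estimated reads a library.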
